A study of Homo sapiens with 4 samples.

Results

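CDC45 on chromosome 22 carried 24 of the 1717 peaks that the authors list as reproducible between replicates of an ADAR eCLIP experiment in K562 cells. The gene was selected on that measured number of reproducible peaks, so its values are given as a description and no test is made on them. Its members are the listed regions on the plus strand of chromosome 22 whose midpoint lies in the RefSeq span of the gene, chr22:19479466-19520612 in GRCh38. That rule found 81 of 534161 clusters in replicate 1, 44 of 155848 clusters in replicate 2 and 24 of 1717 reproducible peaks. A cluster is a short interval in which the authors' caller found reads piled up. Its deposited log2 fold compares the immunoprecipitated (IP) library with the input library of the same replicate number.

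K562 is an established human leukaemia line of erythroid character. Cells of both replicates were untreated, and ultraviolet light (254 nm, 400 mJ/cm2) was used to crosslink protein to RNA. There were 2 ADAR IP libraries, made with an ADAR1 antibody, and 2 input libraries, all from RNA taken out of the gel region 75 kDa above the protein size. The labels do not say whether replicates 1 and 2 were separate cultures, so a difference between them may be technical. The labels give the cell type as a lymphoblast, and marker genes were checked. Clusters lay in 12 of 12 erythroid markers in replicate 1 and in 11 of 12 in replicate 2. The fetal globins HBG1 and HBG2 and the transcription factor GATA1 held clusters in both. Of 10 hepatocyte markers of HepG2, the other line that the protocols name, 0 held a cluster in either replicate. Over all genes, 19454 of 59702 RefSeq gene spans held a cluster in either replicate.

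ADAR1, the product of ADAR, binds double-stranded RNA and converts adenosines in it to inosines. In human cells most of its known substrates are paired copies of repeats, chiefly Alu elements, in introns and untranslated regions. eCLIP reports where the protein was crosslinked to RNA, and it does not measure editing. CDC45 encodes a subunit of the CMG helicase, in which CDC45 and the GINS complex join the MCM ring to unwind DNA at replication forks. The protein is needed to start replication at licensed origins and stays with the moving fork.

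The 24 reproducible peaks were not spread over the gene. They lay between positions 19500161 and 19505099, a stretch of 4939 bases that begins 20.7 kb and ends 25.6 kb after the start of the 41.1 kb gene span. The stretch makes up 12% of the span, and the peaks cover 996 bases, or 20.2%, of the stretch. No cluster of any list lay on the minus strand within the span, and 0 other RefSeq gene spans overlap it. The tables used here give gene spans without exons, so exon, intron and untranslated region were not assigned. The 3 RefSeq promoter windows of the gene, which run from position 19479216 to 19479969, held 0 clusters, and the first cluster starts at 19480003.

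A cluster was called enriched where its log2 fold was at least 3 and its −log10 p at least 3. In replicate 1, 28 of 81 CDC45 clusters (34.6%) were enriched, beside 1.39% of all clusters of that replicate. In replicate 2, 33 of 44 (75%) were enriched, beside 12.8% of all clusters. The same contrast chose the gene, so nothing is read from these differences. The median log2 fold of CDC45 clusters was 2.32 in replicate 1, where the median over all clusters was 0.07. In replicate 2 the CDC45 median was 4.57 and that of all clusters 1.85. Folds ran from −2.15 to 5.44 in replicate 1 and from −0.95 to 6.90 in replicate 2.

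**Figure D1:**
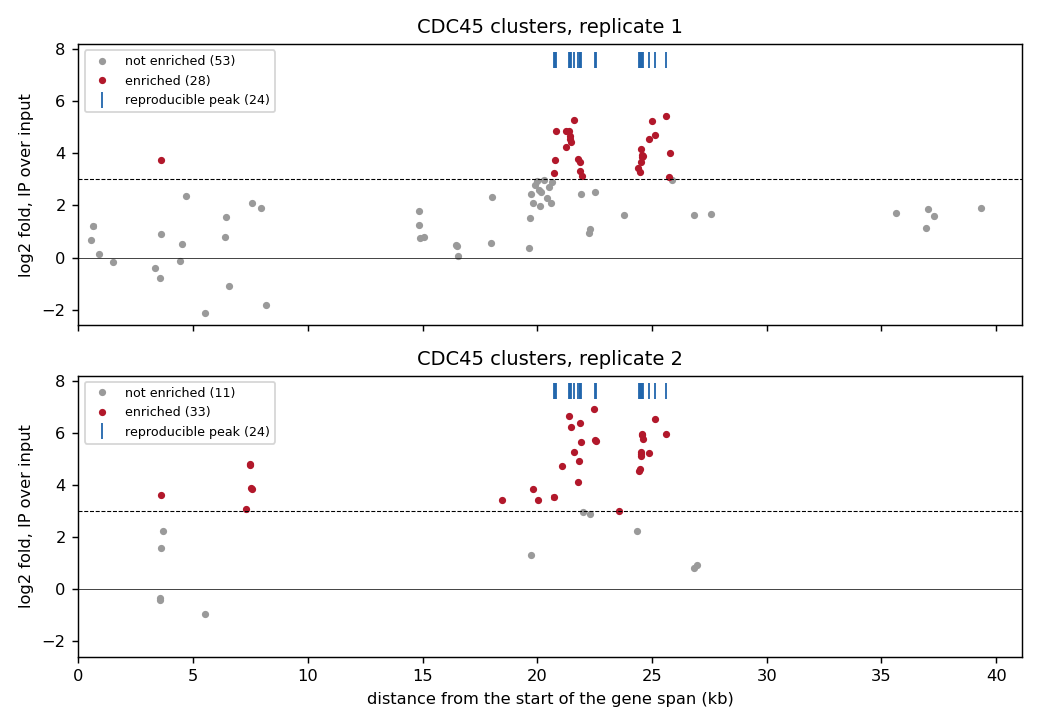
Log2 fold of IP over input for each CDC45 cluster against its distance in kb from the start of the gene span, for replicate 1 (top) and replicate 2 (bottom). Red points are enriched, grey points are not, the dashed line is a log2 fold of 3, and blue ticks mark the 24 reproducible peaks, which lie between 20.7 and 25.6 kb.

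In replicate 1, enrichment was concentrated in the stretch that holds the reproducible peaks. There, 25 of 30 clusters were enriched, with a median log2 fold of 3.88. Before it, 1 of 41 clusters was enriched, with a median of 1.25, and after it 2 of 10, with a median of 1.80. In replicate 2 the stretch held 24 enriched clusters of 27, with a median of 5.25. The upstream part of the gene differed between the replicates, because in replicate 2 it held 9 enriched clusters of 15, with a median of 3.44. Downstream, replicate 2 listed 2 clusters and 0 enriched ones. The stretch is defined by the reproducible peaks, so the contrast between zones is a description of where they lie.

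The reads behind the values could be recovered, because each log2 fold is a ratio of whole reads shifted by a constant for the depth of the libraries. IP depth was 3.33 times input depth in replicate 1 and 0.553 times in replicate 2. In replicate 1 the 28 enriched clusters rested on 45 to 823 IP reads (median 245) and on 1 to 16 input reads (median 4.5). In replicate 2, 27 of the 33 enriched clusters had recoverable reads, with 12 to 251 IP reads (median 95) and 1 to 30 input reads (median 5). The other 6 had a p-value at the authors' limit of 400 on the −log10 scale, which hides the count. The input was thus the smaller side of every enriched ratio with known reads and sets its precision: 14 of the 28 enriched clusters in replicate 1 and 12 of those 27 in replicate 2 had fewer than 5 input reads. The 95% intervals below are Clopper-Pearson intervals of the IP share of reads, written as log2 folds, and cover counting error only. Touching clusters can share reads, so their reads were not added up.

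**Figure D2:**
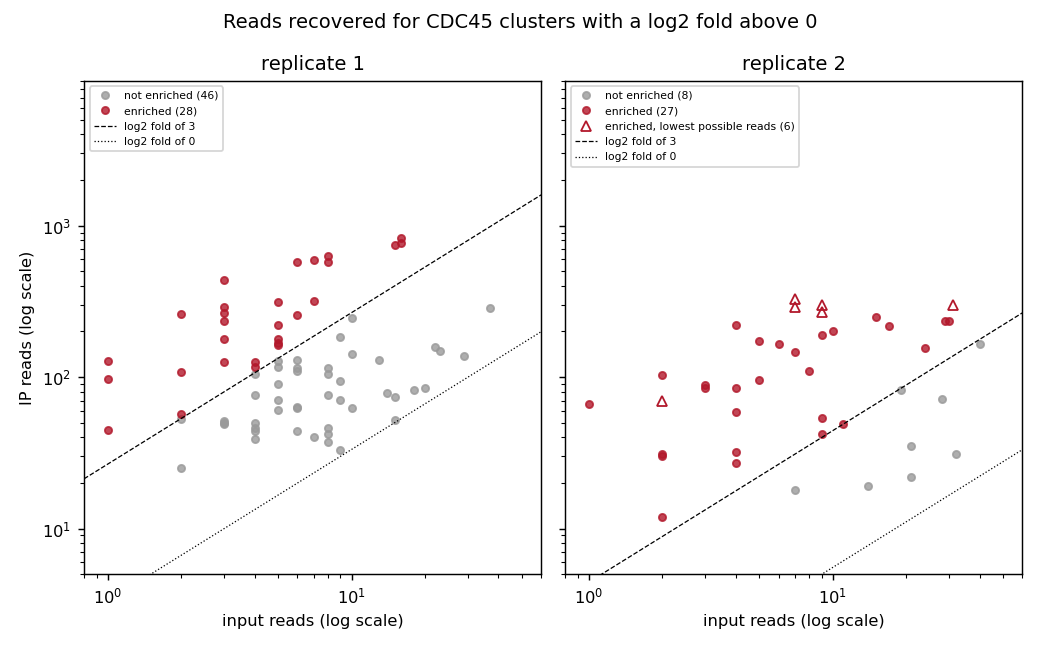
IP reads against input reads, both on log scales, for the CDC45 clusters with a log2 fold above 0, in replicate 1 (left) and replicate 2 (right). Lines mark log2 folds of 3 (dashed) and 0 (dotted); enriched clusters in replicate 1 have 16 or fewer input reads, and open triangles show the lowest possible reads of the 6 clusters at the limit of the p-value.

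Merging peaks that touch left 10 sites, 49 to 193 bases long (median 94), and 4 of them were a single peak. For every reproducible peak, the listed log2 fold was the mean of the folds of both replicates on one interval, so both could be given. The intervals of 15 peaks were those of replicate 1 clusters and 9 were those of replicate 2 clusters. The sites fell into an upstream group of 5 and a downstream group of 5, with 1873 bases between the groups.

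The first site, chr22:19500161-19500299, held 3 peaks of unequal strength. Its first 54 bases had a log2 fold of 3.23 in replicate 1 (interval 1.84 to 5.13, 125 IP and 4 input reads) and 3.18 in replicate 2. The next 60 bases had 3.73 in replicate 1 (2.49 to 5.37) and 5.28 in replicate 2. The last 25 bases had 4.87 in replicate 1, on 97 IP reads over 1 input read, and 5.38 in replicate 2. The interval of that last value, 2.35 to 10.2, shows how little a single input read fixes. The site thus had its lowest fold at its 5′ end in both replicates, with overlapping intervals in replicate 1.

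The second site, chr22:19500842-19500945, held the highest listed fold of the gene. Its 4 peaks had log2 folds of 4.84, 4.67, 4.57 and 4.44 in replicate 1, from 5′ to 3′, and 6.96, 6.60, 6.40 and 6.11 in replicate 2. Each rested on 573 to 632 IP reads and 6 to 8 input reads in replicate 1. The lower bounds of all 4 intervals in replicate 1 were above 3, at 3.71, 3.62, 3.58 and 3.46. The third site, chr22:19501029-19501101, was a single peak with almost the same fold in both replicates, 5.29 in replicate 1 (3.42 to 8.34, 260 IP and 2 input reads) and 5.28 in replicate 2.

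Sites 4 and 5 were those where the replicates were furthest apart. At chr22:19501209-19501401, the 4 peaks had log2 folds of 3.78, 3.68, 3.33 and 2.95 in replicate 1, falling from 5′ to 3′. In replicate 2 they were 4.13, 5.12, 6.44 and 5.64. The order along the site was therefore not the same in the replicates. At chr22:19501965-19502013, the 2 peaks had folds of 2.79 and 2.50 in replicate 1, on 115 and 113 IP reads over 5 and 6 input reads. In replicate 2 they had 5.73 and 5.68, on 88 and 85 IP reads over 3 input reads each. The intervals were 1.53 to 4.44 and 1.33 to 3.98 in replicate 1 and 4.13 to 8.03 and 4.08 to 7.98 in replicate 2, so they overlapped for the first of the 2 peaks and not for the second. These 2 peaks and the last peak of the fourth site were the 3 of 24 whose fold in replicate 1 was under 3.

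The downstream group began with 2 sites only 3 bases apart. At chr22:19503887-19503983, the 3 peaks had log2 folds of 3.23, 3.37 and 4.06 in replicate 1, each on 2 to 5 input reads, and of 4.52, 4.62 and 5.10 in replicate 2. At chr22:19503987-19504085, the 4 peaks had 4.15, 3.85, 3.95 and 3.91 in replicate 1 and 5.26, 5.95, 5.95 and 5.87 in replicate 2. This seventh site had the reproducible peak with the most IP reads in replicate 1, the 39 bases at chr22:19504034-19504072. Its 823 IP reads over 16 input reads gave an interval of 3.24 to 4.76 in replicate 1.

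The last 3 sites were single peaks, and their folds in replicate 1 were among the highest of the 24. At chr22:19504281-19504371 the log2 fold was 4.56 in replicate 1 (2.999 to 6.85) and 5.24 in replicate 2. At chr22:19504557-19504622 it was 4.78 (3.22 to 7.07) and 6.54. At chr22:19505015-19505099 it was 5.35 (3.79 to 7.63, 406 IP and 3 input reads) and 5.96, the former being the highest fold in replicate 1 of any reproducible CDC45 peak.

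**Figure D3:**
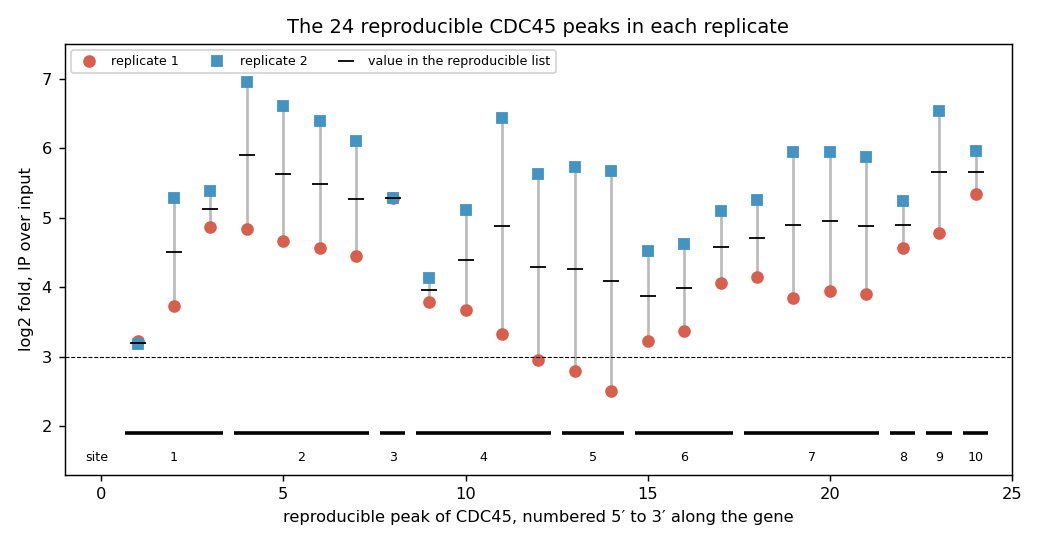
Log2 fold of IP over input in replicate 1 (circles) and replicate 2 (squares) of the 24 reproducible CDC45 peaks, numbered 5′ to 3′, with the listed mean (black bars) and the 10 sites below. Squares lie above circles in 22 of 24 peaks, and 3 circles lie below the dashed line at 3.

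Over the 24 peaks, the fold ran from 2.50 to 5.35 in replicate 1 (median 3.93) and from 3.18 to 6.96 in replicate 2 (median 5.66). The listed means ran from 3.20 to 5.90 (median 4.89), where the whole reproducible list had a median of 4.62. Replicate 2 had the higher fold in 22 of 24 peaks, and in 85.5% of all reproducible peaks. The median difference, replicate 2 minus replicate 1, was 1.61 on the log2 scale for CDC45 and 1.54 for the whole list. The gap between the replicates at CDC45 was therefore close to that of the list as a whole. Both folds were at least 3 in 21 of the 24 peaks, beside 79.4% of the list. Enriched clusters of both replicates overlapped 22 of the 24 peaks, beside 80.3% of the list. The 95% lower bound in replicate 1 was at least 3 in 10 of the 24. The same share was not computed for the whole list, so nothing is read from that count.

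The separate cluster lists were also compared directly, on the same strand and with at least 1 shared base. Of the 28 enriched CDC45 clusters of replicate 1, 22 (78.6%) were overlapped by an enriched cluster of replicate 2, beside 41.9% of all enriched clusters of replicate 1. Of the 33 enriched in replicate 2, 20 (60.6%) were overlapped by an enriched cluster of replicate 1, beside 14% of all enriched clusters of replicate 2. The rule for the gene counts peaks shared by the replicates, so these shares describe what chose it.

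There were 28 pairs of CDC45 clusters in which each was the other's largest overlap. Their log2 folds had a Pearson r of 0.84 and a Spearman rho of 0.77. Within the stretch of the reproducible peaks the values were 0.50 and 0.48 over 18 pairs. Pairs share their libraries and touching clusters share reads, so these are descriptions. Replicate 2 was higher in 23 of the 28 pairs, by a median of 1.22 (SD 1.16), with differences from −1.20 to 3.22. Both members were enriched in 15 pairs, 6 were enriched in replicate 2 alone, 1 in replicate 1 alone and 6 in neither. The pair enriched in replicate 1 alone, just before the sixth site, had folds of 3.42 at chr22:19503807-19503873 in replicate 1, on 178 IP and 5 input reads, and 2.22 at chr22:19503797-19503859 in replicate 2, on 72 IP and 28 input reads.

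**Figure D4:**
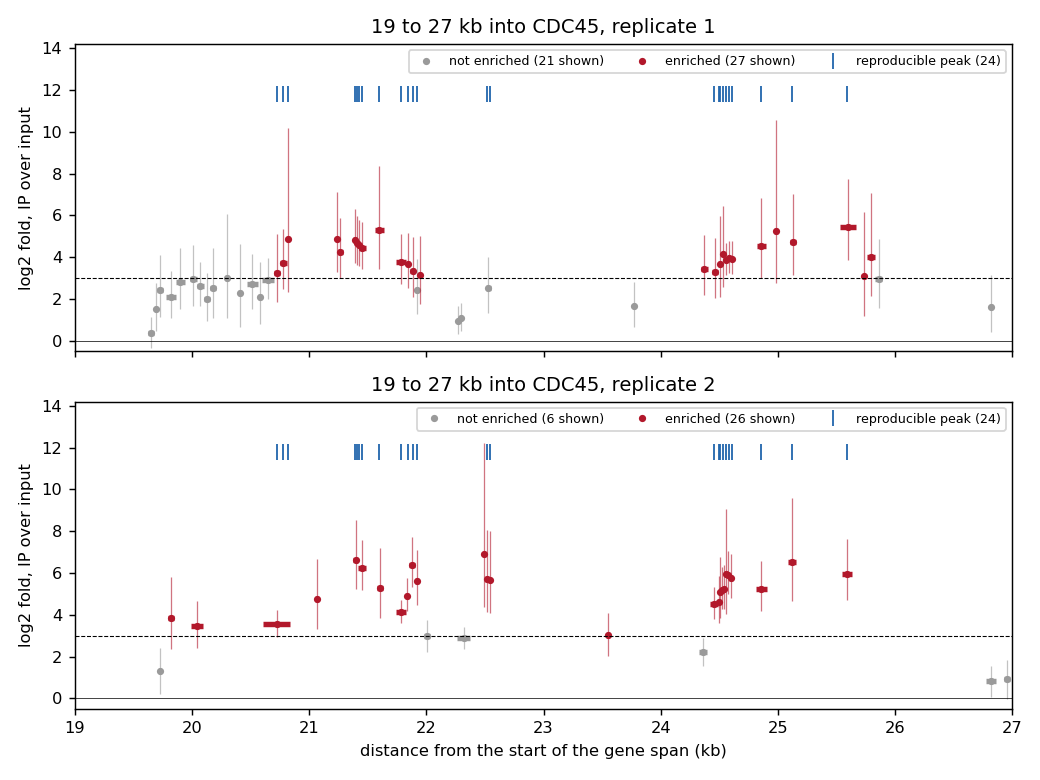
Log2 fold of IP over input of CDC45 clusters between 19 and 27 kb after the start of the gene span, with vertical 95% intervals (counting error only), in replicate 1 (top) and replicate 2 (bottom). Red is enriched, grey is not, blue ticks are the 24 reproducible peaks; for the 6 clusters of replicate 2 at the limit of the p-value, the interval is drawn from the lowest possible reads and is the widest it can be.

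Several enriched clusters were seen in 1 replicate, with no cluster of any fold at that position in the other. The share of such clusters among all enriched clusters was not computed, so nothing is read from their number. In replicate 1 there were 5 such clusters. The 2 with the most reads touch each other between the first and second sites, at chr22:19500693-19500706 with a log2 fold of 4.86 (289 IP and 3 input reads) and at chr22:19500707-19500750 with 4.23 (313 and 5). The cluster at chr22:19504436-19504463 had 5.25 on 127 IP reads over 1 input read. The last 2, at chr22:19505191-19505212 and chr22:19505231-19505297, lay just after the tenth site, with folds of 3.10 and 4.02.

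In replicate 2 there were 7 such clusters. The highest fold of any CDC45 cluster listed for replicate 2, 6.90 at chr22:19501954-19501964, was among them and rested on 66 IP reads over 1 input read. It touches site 5. The cluster at chr22:19500512-19500547 had 4.74 on 59 IP and 4 input reads. A group of 3 lay about 7 kb into the gene, at chr22:19486742-19486802, chr22:19486921-19486941 and chr22:19486942-19486975, with folds of 3.08, 4.76 and 4.81. The clusters at chr22:19497929-19497946 and chr22:19503004-19503034 had 3.44 and 3.01. Beside the group of 3, at chr22:19487014-19487073, replicate 2 had a fold of 3.83 on 236 IP and 30 input reads, with an interval of 3.28 to 4.43. Its partner in replicate 1 had 2.10 on 143 IP and 10 input reads (1.18 to 3.19).

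One position was enriched in both replicates and holds no reproducible peak. It lies 3.62 kb into the gene, with a log2 fold of 3.76 at chr22:19483077-19483099 in replicate 1 (45 IP reads over 1 input read) and 3.61 at chr22:19483069-19483100 in replicate 2 (27 over 4). Such omissions were common outside CDC45: of the 3103 enriched clusters of replicate 1 overlapped by an enriched cluster of replicate 2, 1409 (45.4%) were overlapped by a reproducible peak. The authors' rule for reproducible peaks is not stated in the sources used here.

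Some clusters lay close to the threshold on the fold. In replicate 1 the lowest enriched log2 fold was 3.10 and the highest below the threshold 2.99, at chr22:19499748-19499781 on 53 IP and 2 input reads. In replicate 2 these were 3.01 and 2.96. A fold under 3 with a −log10 p of at least 3 was found for 19 clusters of replicate 1 and 5 of replicate 2. Of the former, 10 lay in the last 1 kb before the first site. Clusters with a −log10 p of 2.83 and 2.99, under the limit, lay among them. The one of these 10 with the smallest p-value, chr22:19500066-19500160, had a log2 fold of 2.89 on 246 IP and 10 input reads (1.98 to 3.96). It touches the first site. In replicate 2 the same bases belong to a longer cluster, chr22:19500074-19500299, with a fold of 3.55 on 155 IP and 24 input reads.

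The name of densest ADAR site cluster in these data did not hold for CDC45 by the number of reproducible peaks or by peaks per kb. By number of reproducible peaks it ranked 2 among the 577 genes with at least 1, after MIR17HG, a long noncoding RNA from which a cluster of microRNAs is cut, with 25. By peaks per kb of gene span it ranked 30, with 0.58 per kb. The 25 peaks of MIR17HG lay within 1229 bases, against 4939 for CDC45. After touching peaks were merged, MIR17HG had 4 sites and CDC45 had 10, which ranked 2. GOLGA4 had 12 sites, over 57099 bases. Genes were not ranked by how closely their sites lie. By enriched clusters CDC45 ranked 19 in replicate 1 and 20 in replicate 2. By the share of clusters enriched, among 2376 genes with at least 20 clusters in both replicates, CDC45 ranked 9 in replicate 1 and 1 in replicate 2. That minimum of 20 was chosen after the values were seen. It leaves out MIR17HG, which had 10 clusters in replicate 2 and 98.1% of its clusters enriched in replicate 1. The median gene had a share of 0% in replicate 1 and 12.5% in replicate 2.

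Of the 3 other genes with the most reproducible peaks, GOLGA4 and LARP4B had the higher fold in replicate 2 at most or all of their peaks, as CDC45 did, and MIR17HG had it in replicate 1. MIR17HG had 52 enriched clusters of 53 in replicate 1 and 0 of 10 in replicate 2. On its reproducible peaks the median log2 fold was 5.03 in replicate 1 and 1.95 in replicate 2, the opposite order to CDC45. GOLGA4, which encodes a golgin of the trans-Golgi network, had 23 reproducible peaks in 12 sites spread over 57099 bases. Its enriched clusters numbered 25 of 207 in replicate 1 and 27 of 83 in replicate 2, and replicate 2 was higher in 17 of its 23 peaks, with medians of 3.66 in replicate 1 and 4.44 in replicate 2. LARP4B, which encodes an RNA-binding protein of the La-related family, had 16 peaks in 8 sites over 12879 bases, and replicate 2 was higher in 16 of 16, with medians of 3.34 and 6.35. Its enriched clusters numbered 11 of 130 and 30 of 63.

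Likeness to CDC45 was also measured as the Euclidean distance over 3 counts per gene, each as log2(count + 1): reproducible peaks, enriched clusters of replicate 1 and enriched clusters of replicate 2. The nearest genes were GOLGA4 at 0.33, LARP4B at 1.40, KMT2E at 1.52, P4HA1 at 1.60 and ABCC1 at 1.64. KMT2E is related to histone methyltransferases, P4HA1 is a collagen prolyl hydroxylase subunit and ABCC1 is a drug efflux transporter. KMT2E and P4HA1 held 10 reproducible peaks each and ABCC1 held 9. Among these genes CDC45 has the shortest span, 41147 bases against 89650 to 193911 for the other 5. The likeness is one of counts and does not take the length of the gene into account.

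**Figure D5:**
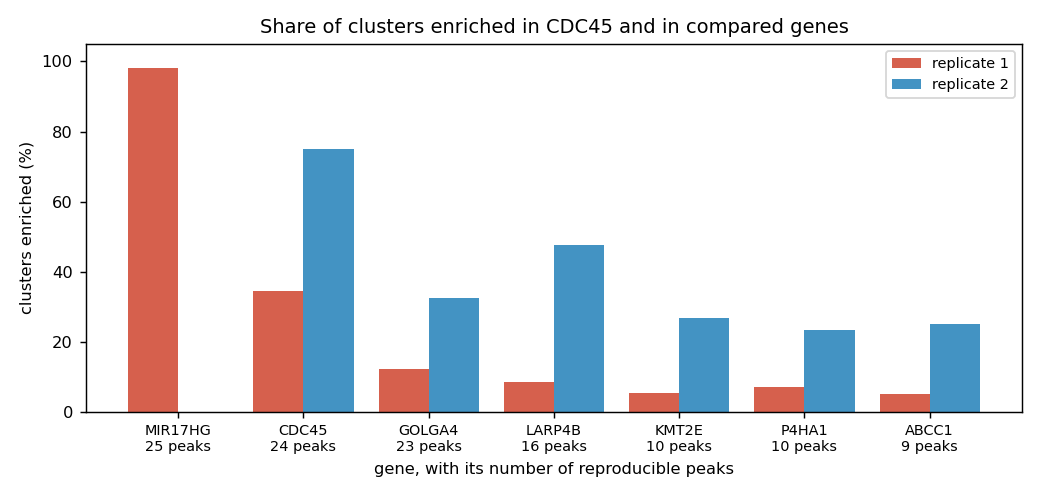
Percent of clusters enriched in replicate 1 and replicate 2 for CDC45 and the genes set beside it, ordered by their number of reproducible peaks; bars start at 0 and each is 1 value. CDC45 stands at 34.6% and 75%, while MIR17HG has 0% in replicate 2.

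The other genes of DNA replication were then examined for the same signal. A list of 57 replication genes without CDC45 was used, and all 57 held a cluster. In replicate 1, 14 of 57 held an enriched cluster, beside 12.8% of all genes with a cluster. In replicate 2, 30 of the 53 with a cluster did, beside 38.7% of all such genes. Genes with an enriched cluster in both replicates included the origin recognition subunits ORC3, ORC4 and ORC5 and the licensing factor CDC6. The share of all genes with an enriched cluster in both was not computed, so no count is given. Reproducible peaks lay in 2 of the 57, beside 2.97% of all genes with a cluster. These were DBF4, the activating subunit of the CDC7 kinase, with 2 peaks, and POLE, the catalytic subunit of the leading strand polymerase, with 3.

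POLE was the replication gene nearest to CDC45 in its counts, with 10 enriched clusters in replicate 1 and 11 in replicate 2. Its highest reproducible log2 fold was 6.10, above the highest of CDC45, 5.90, but its 3 peaks were 59526 bases apart from first to last. The 2 peaks of DBF4 lay within 74 bases, with a highest listed fold of 5.35, and its clusters counted 1 enriched in replicate 1 and 5 in replicate 2. POLD1, the catalytic subunit of the lagging strand polymerase, had 4 and 7 enriched clusters and 0 reproducible peaks.

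The partners of CDC45 in the CMG helicase are MCM2 to MCM7 and GINS1 to GINS4. Of these 10 subunits, 0 held a reproducible peak, where 2.97% of all genes with a cluster did. In replicate 1, 1 of 10 subunits held enriched clusters, beside 12.8% of all genes, namely MCM7 with 12 of 36. Of these 12, 9 overlapped the spans of 3 microRNA genes that lie within MCM7 (MIR25, MIR93 and MIR106B). Over the whole MCM7 span, replicate 2 had 0 enriched clusters of 6. In replicate 2, 5 of 9 subunits with a cluster held enriched ones, beside 38.7% of all genes, led by MCM5 with 6 and GINS4 with 2. The counts of the other groups stand beside the same shares over all genes, 12.8% in replicate 1 and 38.7% in replicate 2. The genes of origin licensing held enriched clusters in 5 of 10 in replicate 1 and 6 of 10 in replicate 2. Those of helicase loading and firing did in 2 of 10 and 6 of 10, and those of fork protection in 0 of 4 and 2 of 4, led by WDHD1 with 5 clusters in replicate 2. The polymerase and clamp genes did in 6 of 23 and 11 of 20. For genes whose strand the tables do not give, among them MCM4, MCM5 and GINS4, clusters on either strand were counted.

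The lists hold no expression values, and whether the abundance of a transcript moves with its number of enriched clusters was not tested.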

How the data were processed

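The authors' deposited data were 3 lists of regions: the clusters of replicate 1, those of replicate 2, and a list of reproducible peaks. The submitters' processing notes name cutadapt 1.9 and STAR 2.4.0i. The sources used here do not state the peak caller or how the replicates were combined. The notes also name several genome builds, and the coordinates fit GRCh38. They are printed counting from 1. In the authors' deposited lists one column is a −log10 p-value of IP over input, limited to 400, and the other is a log2 fold of IP over input.

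Reads were recovered from these values. Each fold is log2 of IP reads over input reads plus a constant. The constant assumes that the most frequent fold stands for 3 IP reads and 1 input read. The number of reads was the multiple of the ratio whose p-value matched within 0.02, using an exact binomial test if either count was under 5 and otherwise a Yates-corrected chi-square test. This matched 99.4% of distinct fold and p pairs in replicate 1 and 99.0% in replicate 2, against at most 6.87% when 2 or 4 IP reads were assumed instead. Reads were recovered for 74 of 81 and 35 of 44 CDC45 clusters. The rest had a fold at or below 0 or a p-value at the limit. The recovery was also run on simulated reads, with p-values from the same tests and a known constant. That run checks the code and cannot show that the assumed constant is right. The sources used here do not give total reads per library.

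The fold of a reproducible peak in the replicate that did not supply its interval was taken as 2 times the listed fold minus the other replicate's fold. It fell on that replicate's steps for 1714 of 1714 peaks, against 0.817% on a shifted scale. The listed p-value was never more significant than that of the cluster that supplied the interval. For the 15 CDC45 peaks with a replicate 1 interval it equalled the replicate 1 p-value. For the 9 with a replicate 2 interval it was assumed to be the replicate 1 p-value. These are the last peak of site 4 and all peaks of sites 5, 6, 8, 9 and 10. Their replicate 1 reads and intervals rest on that assumption. Genes are RefSeq spans of GRCh38.p14, by cluster midpoint, and a cluster counts in every span that holds it. A strand was known for 27305 of 59702 spans. No DNA sequence of the peaks was read, because no genome of this build was used here.

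The members and gene lists were chosen with earlier results of these data known. The text names CDC45, MIR17HG, GOLGA4, LARP4B, the 5 nearest genes by the 3 counts, list members with a reproducible peak, and up to 5 members per list with the most enriched clusters. Other thresholds, overlaps and merging of touching clusters were tried. Python 3.11.15, numpy 2.4.6, pandas 2.3.3 and scipy 1.17.1 were used.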

Additional observations from a re-analysis of the deposited data

How the results depend on the processing

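Of 34 alternatives, 25 left the count or value within 1.5 times or within the spread of the pairs. Counts and ranks have no direction that could reverse. Only the median fold difference of the pairs has a sign, and it was 1.22 in the main setting and 1.24 in its alternatives. In replicate 1 the 28 enriched CDC45 clusters became 14 at a log2 fold of at least 4, 15 after touching clusters were merged, 11 where the lower 95% bound had to reach 3, and 14 with at least 5 input reads. In replicate 2 the 33 became 18 after merging and 20 with at least 5 input reads, and the lower bound left 24. The 24 reproducible peaks became 10 sites after merging. The rank of CDC45 was 2 by peaks and 30 by peaks per kb. At a log2 fold of at least 4, replication genes with an enriched cluster in replicate 1 numbered 9, against 14. Taking 1 replicate at a time, 22 to 24 of the 24 reproducible peaks were overlapped by an enriched cluster. The alternatives on the lower bound, on input reads and on both folds of the reproducible peaks were chosen after seeing the data. No paired analysis was possible as a test, because the gene was selected on its number of reproducible peaks. Clusters and peaks were paired between the replicates as a description only. Each fold already sets the IP of a replicate against the input of the same number. Low input counts limit the precision of all folds.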

Other observations

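The genes near CDC45 on chromosome 22 were also examined. Of 18 listed neighbours, 17 held a cluster, and 12 of these held an enriched cluster in replicate 1, beside 12.8% of all genes with a cluster. In replicate 2, 7 of 16 did, close to the 38.7% of all genes. Reproducible peaks lay in 3 of the 17 neighbours, beside 2.97% of all genes, with 5 peaks in all, against 24 in CDC45. HIRA, a histone chaperone gene, had 2 within 39 bases, with a highest listed log2 fold of 5.30. TANGO2 had 2 within 68 bases, with a highest of 4.16. UFD1, whose span ends before that of CDC45 begins and which encodes a cofactor of the segregase p97, had 1, with a listed fold of 5.37, made up of 3.54 in replicate 1 and 7.19 in replicate 2. DGCR8, which encodes the RNA-binding partner of Drosha, had 5 enriched clusters of 54 in replicate 1 and 0 of 43 in replicate 2.

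Among the erythroid markers, 4 of 12 held an enriched cluster in replicate 1, beside 12.8% of all genes, and 3 of 11 in replicate 2, beside 38.7%. TFRC, the transferrin receptor gene, had 5 reproducible peaks.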
